A study of Mus musculus with 36 samples.

Results

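Male PGCs from control and IUHG fetuses were compared at E13.5 and again at E16.5, and the quantity tested was the interaction between stage and IUHG (intrauterine hyperglycemia): the IUHG minus control difference at E16.5M minus that at E13.5M. The 12 libraries were every male PGC library of these stages among the 36 samples of the series, 3 in each of 4 groups (E13.5M control, E13.5M IUHG, E16.5M control and E16.5M IUHG), and 21712 of 57126 gene IDs were tested. All fetuses were labelled WT and came from females mated with Oct4-EGFP males, a reporter that makes PGCs fluoresce. IUHG dams had been made diabetic on day 3.5 with 120 mg/kg of streptozotocin (STZ), which kills the insulin-producing β-cells, and had a blood glucose above 14 mM on day 6.5. EGFP-positive cells were sorted from gonads, and 20 to 30 fetuses were pooled for each sample, so a library is an average over many fetuses and not 1 animal. Different fetuses were collected at each stage, and no cell was followed from E13.5 to E16.5. The comparison asks which of the expression differences seen at E13.5M were still measured at E16.5M, which were not, and which appeared only at E16.5M.

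Male PGCs stop dividing in the fetal testis and take up the spermatogonial fate. NODAL signalling and the RNA-binding protein NANOS2 act early in this switch, and NANOS2 holds back STRA8, the factor that retinoic acid and BMP signals raise when female germ cells enter meiosis. Later, male germ cells build the piRNA machinery, in which PIWI and tudor proteins and small RNAs guide the de novo methylation of transposons by DNMT3A, DNMT3C and DNMT3L.

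Expression is given as TPM (a share of all transcripts, corrected for their length and set to 1 common total per library). Differences are on the log2(TPM + 1) scale, on which weakly expressed genes appear to change less than they did, and are given with their SE. A difference was called at an adjusted p under 0.01 (limma, two-sided, Benjamini-Hochberg over the 21712 genes) and an absolute log2 difference above 1. Aligned bases were 6.13 to 7.74 gigabases per library at E13.5M and 3.95 to 5.13 gigabases at E16.5M, and 13703 to 13932 and 19709 to 20126 genes reached 1 TPM. The number of reads behind a gene is unknown. Log2 values of replicates correlated across genes at 0.9927 to 0.9935 (Pearson) at E13.5M and at 0.9727 to 0.9843 at E16.5M, and the median gene had an SD of 0.104 and 0.113 in the E13.5M groups against 0.172 and 0.174 in the E16.5M groups. The labels do not say that replicates came from separate litters, so p-values measure the spread between these samples. In bulk PGCs, fewer cells expressing a gene and less RNA per cell cannot be told apart. Genes used as germ cell markers were abundant in every library (10 pan-germ genes summed to 13005 to 13926 TPM at E13.5M and 4628 to 5145 TPM at E16.5M). Markers of somatic cells were present too, with sums of up to 361.4 TPM over 14 Sertoli cell genes and up to 190.1 TPM over 7 Leydig cell genes.

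IUHG changed 545 genes at E13.5M (2.51% of those tested), 283 higher (1.3%) and 262 lower (1.21%), and 174 at E16.5M (0.801%), 82 higher (0.378%) and 92 lower (0.424%). The interaction was called for 701 genes (3.23%), with 316 (1.46%) in which the IUHG difference was higher at E16.5M than at E13.5M and 385 (1.77%) in which it was lower. That split was 183 to 345 with FPKM, 257 to 483 with median-of-ratios scaling and 242 to 374 after quantile normalization. The E16.5M calls split into 27 higher and 50 lower with FPKM, 48 and 88 with median-of-ratios scaling and 63 and 100 after quantile normalization. When each stage was fitted on its own, 340 genes were called at E13.5M and 27 at E16.5M (12 higher and 15 lower), so most E16.5M calls were made only with the spread estimated over both stages. The E13.5M and E16.5M differences share no library, but the fit gives both 1 spread per gene, so calls at the 2 stages are not independent. Of the 545 genes called at E13.5M, 18 (3.3%) were also called at E16.5M, beside 0.801% of all genes, and these were 10.3% of the E16.5M calls. Of the 18, 9 were called in the same direction at both stages and 9 in opposite directions. The 283 genes called higher at E13.5M had a median difference of 1.29 there and -0.096 at E16.5M, and the 262 called lower had medians of -1.28 and -0.069, beside all-gene medians of 0 and 0.038. Across the 21712 genes the differences at both stages correlated at 0.012 (Pearson, across genes, which are not independent replicates).

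**Figure D1:**
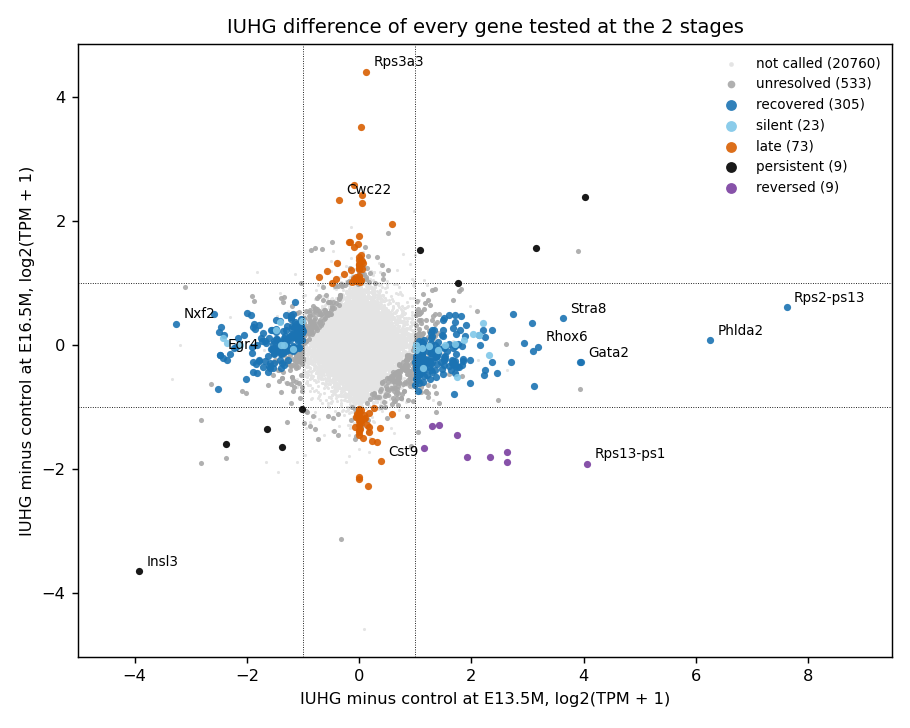
Each point is 1 of the 21712 genes tested, with the IUHG minus control difference at E13.5M on the horizontal axis and at E16.5M on the vertical axis, both as log2(TPM + 1); dotted lines mark differences of -1 and 1. The 305 recovered genes lie along the horizontal axis, the 73 late genes along the vertical one and the 9 persistent and 9 reversed genes away from both, and 533 further called genes could not be placed.

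Called genes were sorted into classes. A gene was recovered when it was called at E13.5M and in the interaction, was not called at E16.5M, had a 95% interval of the E16.5M difference within -1 to 1, and reached a mean of 1 TPM in an E16.5M group. This class held 305 genes (1.4% of those tested), 164 that had been higher (0.755%) and 141 that had been lower (0.649%) at E13.5M. Of the 545 genes called at E13.5M, 463 (85.0%) had an E16.5M interval within -1 to 1, beside 87.1% of all genes tested. Genes called at E13.5M thus met that bound no more often than genes at large. A further 23 genes (0.106%) met the same rule but had means under 1 TPM in both E16.5M groups, where a difference is hard to detect, and are called silent. Persistent genes, called at both stages in the same direction, numbered 9 (0.0415%), of which 4 were higher (0.0184%) and 5 lower (0.023%). Late genes, called only at E16.5M and in the interaction with an E13.5M interval within -1 to 1, numbered 73 (0.336%), and 9 genes (0.0415%) were called at both stages in opposite directions. The other 533 called genes could not be placed: 251 of them passed only in the interaction, 168 only at E13.5M and 76 only at E16.5M. Recovered does not mean equal, since 13 of the 305 genes had an adjusted p under 0.01 at E16.5M with a difference inside the bounds.

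Recovered genes met in different ways. The median gene among the 164 that were higher at E13.5M stood at 3.17 TPM in control and 11.5 TPM in IUHG libraries at E13.5M and at 10.8 and 10.5 TPM at E16.5M. The median gene among the 141 that were lower stood at 10.5 and 3.16 TPM at E13.5M and at 23.0 and 24.3 TPM at E16.5M. The rule itself sets the closeness at E16.5M, so these medians are a description.

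Phlda2, an imprinted gene that limits placental growth (chr7:143055282-143056278, minus strand), had the largest recovered difference outside of gene copies. It stood at 3.97, 6.08 and 7.23 TPM in control and 521, 486 and 510.3 TPM in IUHG PGCs at E13.5M, and at 71.4, 77.6 and 68.3 TPM and 80.2, 74.3 and 75.2 TPM at E16.5M. The E13.5M libraries were far apart, 87.8-fold in the means, and those at E16.5M overlapped. The difference was 6.26 ± 0.14 at E13.5M (adjusted p = 1.5e-11) and 0.08 ± 0.14 at E16.5M (adjusted p = 0.74), giving an interaction of -6.18 ± 0.19 (adjusted p = 1e-09). Control PGCs thus rose in Phlda2 between the stages while IUHG PGCs came down to a like level. Slc22a18, an imprinted gene of the same cluster, rose from a mean of 2.49 to 16.1 TPM at E13.5M and stood at 42.1 and 34.9 TPM at E16.5M (interaction -2.63 ± 0.30, adjusted p = 9.4e-05). Nnat, a paternally expressed gene, fell by 1.59 on the log2 scale at E13.5M and recovered, with means of 96.0 and 73.8 TPM at E16.5M, but it kept that class in only 9 of 24 alternatives. Of 27 imprinted genes tested, 4 were called higher and 1 lower at E13.5M (18.5% called, beside 2.51% of all genes) and none at E16.5M (beside 0.801%), with list medians of 0.117 and 0.064. The amino acid transporter gene Slc38a4 was among those that rose at E13.5M (1.15 ± 0.08), and its E16.5M libraries were also apart, at 40.9, 41.2 and 37.3 TPM in control and 65.2, 58.3 and 56.3 TPM in IUHG (0.58 ± 0.08, adjusted p = 0.00067), short of the size threshold. H19, Meg3, Dlk1 and Zdbf2 were not called in any comparison, with stage differences between -0.34 and 0.30.

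Of 15 genes that respond to BMP, 5 rose in IUHG PGCs at E13.5M and none fell (33.3% called, beside 2.51% of all genes), and none was called at E16.5M (beside 0.801%). The list median was 0.432 at E13.5M and -0.008 at E16.5M. Gata2, a transcription factor gene, stood at 1.96, 3.26 and 1.93 TPM in control and 52.7, 47.6 and 51.8 TPM in IUHG libraries at E13.5M, and at 10.1, 7.15 and 8.28 and 6.15, 6.94 and 7.42 TPM at E16.5M. No E13.5M library of either group came near the other group, and the interaction was -4.23 ± 0.22 (adjusted p = 1.3e-07). Msx2, a homeobox gene, rose from 1.58, 0.909 and 0.708 TPM to 14.2, 14.1 and 15.2 TPM at E13.5M, and at E16.5M both groups stood at the raised level, 17.0, 17.5 and 17.9 and 17.1, 16.4 and 20.0 TPM (interaction -2.90 ± 0.19, adjusted p = 1.5e-06). Its homolog Msx1 took another course. It rose from 3.93, 2.98 and 2.79 TPM to 19.6, 20.1 and 19.7 TPM and was then at no more than 1.09 TPM in any E16.5M library, so it counted as silent (interaction -2.47 ± 0.24, adjusted p = 3.3e-05). The Id genes code for proteins that bind bHLH factors and keep them off DNA. Id1 rose from 18.7, 18.1 and 19.5 TPM to 64.4, 62.5 and 61.5 TPM at E13.5M. At E16.5M Id1 was lower in IUHG, at 13.0, 12.7 and 15.1 TPM against 22.5, 27.5 and 23.1 TPM, a difference of -0.79 ± 0.09 (adjusted p = 0.00029) that fell short of the size threshold while its interval from -0.99 to -0.60 stayed within the bounds of the recovered class. That class held for Id1 in 10 of 24 alternatives. Id2 also recovered (interaction -1.34 ± 0.27, adjusted p = 0.0042), though its interaction call was lost in 9 of 24 alternatives. For Id3 the interaction was called (-1.33 ± 0.15, adjusted p = 0.00011) and the E13.5M difference of 0.98 ± 0.11 was just under the size threshold.

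Of 36 genes of meiotic entry and prophase, 5 were called higher and none lower at E13.5M (13.9% called, beside 2.51% of all genes), and none was called at E16.5M (beside 0.801%). The list median was 0.145 at E13.5M and 0.188 at E16.5M. Stra8, which female germ cells need to start meiosis, stood at 8.73, 13.0 and 11.7 TPM in control and 175, 138 and 134 TPM in IUHG male PGCs at E13.5M, 13.3-fold higher in the means. At E16.5M the libraries overlapped, at 32.4, 30.0 and 43.1 TPM in control and 56.0, 44.0 and 42.6 TPM in IUHG. The differences were 3.63 ± 0.17 (adjusted p = 2.6e-08) and 0.43 ± 0.17 (adjusted p = 0.1), and the interaction was -3.20 ± 0.23 (adjusted p = 3.2e-06). For scale, control female PGCs at E13.5 averaged 1832 TPM of Stra8 and control PGCs at E12.5, not separated by sex, 12.3 TPM. Meiosin, which codes for the partner of STRA8, rose from 2.98 to 8.54 TPM in the means at E13.5M and stood at 14.2 and 12.1 TPM at E16.5M (interaction -1.51 ± 0.25, adjusted p = 0.0013). Rec8, a subunit of meiotic cohesin, rose from 4.17 to 16.53 TPM and stood at 21.9 and 22.7 TPM (interaction -1.74 ± 0.23, adjusted p = 0.00033). Meioc also rose at E13.5M (1.67 ± 0.16, adjusted p = 1.7e-05). Its E16.5M libraries remained apart at 5.40, 2.96 and 3.66 TPM in control and 7.51, 7.29 and 6.59 TPM in IUHG (0.72 ± 0.16, adjusted p = 0.012). The interaction of Meioc was not called, so it could not be placed. Sycp3, a part of the synaptonemal complex, was not called, with differences of -0.18 ± 0.06 and 0.19 ± 0.06. On a list of meiosis genes that the study had chosen on these PGC libraries, 10 of 66 were called higher and 7 lower at E13.5M and 1 lower at E16.5M. These were 25.8% and 1.52% of the list, beside 2.51% and 0.801% of all genes. Given how the list was chosen, this is not independent evidence of a change or its direction.

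The Rhox genes, X-linked homeobox genes of the reproductive tract, were a list with many calls at E13.5M. Of 32 tested, 11 were called higher and 1 lower at E13.5M (37.5% called, beside 2.51% of all genes), and none was called at E16.5M. The list median moved from 0.906 at E13.5M to -0.145 at E16.5M. With FPKM 7 of 28 were called higher at E13.5M, and 5 of 32 when that stage was fitted on its own. Rhox6 stood at 43.6, 37.2 and 40.4 TPM in control and 377, 383 and 372 TPM in IUHG at E13.5M, and at 22.8, 20.1 and 21.4 and 22.8, 17.9 and 22.9 TPM at E16.5M, where the groups overlapped (interaction -3.22 ± 0.13, adjusted p = 1.8e-08). Rhox9 stood at 96.2, 81.8 and 84.7 TPM and 794, 763 and 728 TPM at E13.5M, and at 20.5, 14.2 and 21.4 and 11.1, 14.0 and 9.36 TPM at E16.5M, where IUHG was the lower group (-0.65 ± 0.15, adjusted p = 0.012) and missed both thresholds. The means in E13.5M IUHG were 377 and 761 TPM. PGCs at E12.5, not separated by sex, averaged 415.8 TPM of Rhox6 and 753.8 TPM of Rhox9 in control. In IUHG PGCs at E12.5 the means were 921 and 1590 TPM. These E12.5 levels are given here with no test. Rhox13 rose from a mean of 7.88 to 26.4 TPM and recovered (interaction -1.94 ± 0.23, adjusted p = 0.00014). Rhox10 went the other way, from 21.0, 26.0 and 30.3 TPM to 13.7, 9.55 and 10.3 TPM at E13.5M, and stood at 652, 595 and 594 and 589, 585 and 580.5 TPM at E16.5M (interaction 1.07 ± 0.18, adjusted p = 0.0015). The Rhox2 and Rhox4 genes are near-identical copies between which reads can be split, so the 4 of them that recovered (Rhox2f, Rhox2h, Rhox4c and Rhox4g) are uncertain as separate genes.

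Other recovered genes that had been higher at E13.5M came from several pathways. Npw codes for the neuropeptide W precursor and stood at 4.90, 4.79 and 5.31 TPM in control and 20.5, 20.7 and 18.0 TPM in IUHG at E13.5M, then at 69.1, 71.3 and 66.8 and 56.0, 51.6 and 54.6 TPM at E16.5M (interaction -2.13 ± 0.11, adjusted p = 1.3e-07). Ldha, which codes for the lactate dehydrogenase A subunit, rose from 39.4, 41.5 and 38.9 TPM to 96.0, 94.7 and 105 TPM and was at 195, 196 and 178 and 175, 174 and 170.3 TPM at E16.5M (interaction -1.41 ± 0.08, adjusted p = 4.7e-07). Hk1, a hexokinase gene, rose from a mean of 4.43 to 10.8 TPM and was at 21.1 and 19.7 TPM. These were the 2 called genes at E13.5M among 25 of glycolysis and glucose uptake (8.0%, beside 2.51% of all genes), of which none was called at E16.5M. No gene of 22 in the TCA cycle, 22 antioxidant genes and 76 subunits of oxidative phosphorylation was called at either stage. Porcn, the enzyme that acylates WNT ligands, rose from 6.80 to 33.5 TPM and returned to 6.56 TPM against 6.51 TPM (interaction -2.15 ± 0.18, adjusted p = 8.2e-06), and Notum, which removes that lipid, rose by 1.05 ± 0.18 but kept its class in only 8 of 24 alternatives. Ccne1, the cyclin E1 gene, rose from 35.9 to 80.1 TPM and Cdk6 fell from 9.36 to 3.91 TPM at E13.5M. Both recovered, and they were the only genes called at either stage among 33 cell cycle drivers (6.06% at E13.5M, beside 2.51% of all genes). None of 14 cell cycle brakes was called. Crabp1, which codes for a retinoic acid binding protein, rose at E13.5M (1.18 ± 0.11), as did Phf19 of the Polycomb PRC2 complex (1.82 ± 0.16), the p53 target Perp (1.73 ± 0.13) and Fgfr3 (1.20 ± 0.15), and all 4 recovered.

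**Figure D2:**
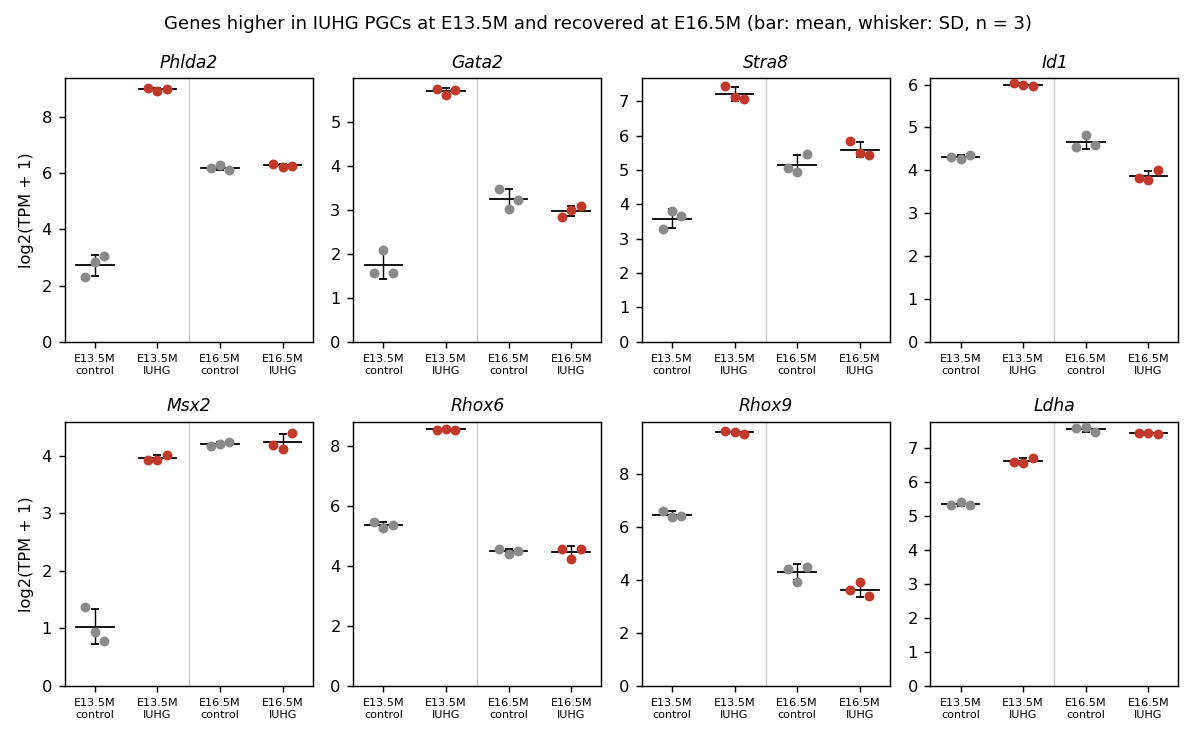
Each panel shows 1 gene that was higher in IUHG PGCs at E13.5M, as log2(TPM + 1) in each library of the 4 groups; horizontal bars are means and whiskers the SD (n = 3). The groups stand apart at E13.5M in all 8 panels and differ by less than 1 at E16.5M; Msx2 controls rise to the IUHG level, whereas Rhox6 and Rhox9 fall from a high IUHG level.

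Among genes that were lower in IUHG PGCs at E13.5M, the piRNA pathway held several. Of 22 tested, 5 fell at E13.5M (22.7% called, beside 2.51% of all genes) and none rose, and none was called at E16.5M. The list median was -0.438 at E13.5M and 0.098 at E16.5M. With FPKM, or with E13.5M fitted on its own, 4 fell. Gtsf1, which codes for a PIWI partner, stood at 48.7, 43.8 and 42.7 TPM in control and 13.52, 17.3 and 16.6 TPM in IUHG at E13.5M, and at 1488, 1301 and 1327 and 1443, 1413 and 1491 TPM at E16.5M. The E13.5M groups did not overlap and the E16.5M groups did, with an interaction of 1.54 ± 0.12 (adjusted p = 5e-06). Tdrd1, a tudor protein gene, stood at 13.0, 15.1 and 14.6 TPM against 4.51, 3.99 and 4.87 TPM at E13.5M and at 84.9, 95.6 and 92.3 against 111, 101 and 105 TPM at E16.5M (interaction 1.70 ± 0.12, adjusted p = 2.5e-06). Tdrd5 was abundant already in E13.5M controls, at 126, 134 and 136 TPM, and stood at 58.5, 60.2 and 61.7 TPM in IUHG. At E16.5M it was higher in IUHG, at 122, 114 and 108 TPM against 86.7, 92.1 and 92.2 TPM (0.34 ± 0.06, adjusted p = 0.0035), inside the bounds of the class. Morc1, needed for transposon silencing, had the same shape, with a difference of -1.22 ± 0.10 at E13.5M and 0.49 ± 0.10 at E16.5M (adjusted p = 0.0085). Piwil4, the nuclear PIWI gene of fetal male germ cells, fell from 6.49, 7.58 and 8.53 TPM to 3.90, 1.89 and 2.69 TPM and stood at 285, 260.3 and 249 and 275, 261 and 251 TPM at E16.5M. Its interaction (1.17 ± 0.21, adjusted p = 0.0027) was lost in 7 of 24 alternatives, one of them the fit without E13.5M IUHG replicate 2 (0.99). Mael passed in the interaction alone (1.00 ± 0.09, adjusted p = 1.2e-05), with means of 164 and 87.4 TPM at E13.5M and 1787 and 1916 TPM at E16.5M. Henmt1, Tdrd9 and Spocd1 had means of 2.63, 1.92 and 0.423 TPM in E13.5M controls and were not called.

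Nxf2 had the largest recovered difference of the genes that had been lower, leaving out copies. It is a germ cell relative of the mRNA export factor gene Nxf1 and lies on the X chromosome (chrX:133845277-133865503, minus strand). It stood at 15.9, 15.4 and 16.0 TPM in control and 0.720, 0.854 and 0.697 TPM in IUHG at E13.5M, 20.8-fold lower in the means. At E16.5M it was among the abundant transcripts, at 948, 808 and 816 TPM in control and 1122, 1099 and 1047 TPM in IUHG. The difference went from -3.25 ± 0.07 (adjusted p = 1.5e-11) to 0.35 ± 0.07 (adjusted p = 0.0069), so that IUHG was slightly the higher group at E16.5M, and the interaction was 3.60 ± 0.10 (adjusted p = 3.8e-10). PGCs at E12.5, not separated by sex, averaged 0.582 TPM of Nxf2 in control and 0.916 TPM in IUHG, given with no test. Ptgr1, which codes for prostaglandin reductase, stood at 67.6, 72.4 and 64.7 TPM and 18.6, 15.6 and 19.3 TPM at E13.5M and at 106, 112 and 107 and 136, 132 and 132 TPM at E16.5M (interaction 2.18 ± 0.11, adjusted p = 1.1e-07).

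The promoters of Nxf2 and Tdrd1 are shown because both hold CACGTG, the E-box read by MYC, MAX and MGA, a letter sequence found at the starts of many germline genes. The sequences are those of RefSeq on GRCm38.p6, from 250 bases before to 50 bases after the annotated start, 5′ to 3′ on the gene's strand, with CACGTG in capitals.
Nxf2: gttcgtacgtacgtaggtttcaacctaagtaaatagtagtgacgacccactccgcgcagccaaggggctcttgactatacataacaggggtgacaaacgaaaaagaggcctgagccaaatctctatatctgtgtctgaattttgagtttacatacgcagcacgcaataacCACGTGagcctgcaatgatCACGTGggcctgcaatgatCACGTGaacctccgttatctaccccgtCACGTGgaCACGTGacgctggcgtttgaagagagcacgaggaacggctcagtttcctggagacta
Tdrd1: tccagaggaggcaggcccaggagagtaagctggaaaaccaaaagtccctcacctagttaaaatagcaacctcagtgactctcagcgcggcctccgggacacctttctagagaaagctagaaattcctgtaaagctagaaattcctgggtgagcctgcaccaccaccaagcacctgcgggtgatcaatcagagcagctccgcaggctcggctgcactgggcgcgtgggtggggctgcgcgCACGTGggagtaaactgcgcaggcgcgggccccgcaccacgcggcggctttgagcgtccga
The Nxf2 window (chrX:134964705-134965004, minus strand) held 5 matches, the first at position -80 from the start, and the Tdrd1 window (chr19:56825959-56826258, plus strand) held 1, at position -11. Both windows had 20 CpG. The motif reads the same on both strands. It was present in 7.24% of the 27025 promoters of the table, in 9.75% of those of genes tested, in 10.1% of 178 promoters of genes called lower at E13.5M, in 5.38% of 186 of genes called higher, and in 6.48% of 108 of recovered genes that had been lower. A match is a run of letters and not a measured site. Of the other windows searched for it, that of Mael held 1 match, at position -223, and those of Gtsf1, Tdrd5, Dnmt3l, Stra8, Phlda2 and Nanos2 held none.

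Of 5 genes of the EGR family and their NAB corepressors, Egr1, Egr4 and Nab2 were called lower at E13.5M and Egr2 and Nab1 were not. That was 60.0% of the list, beside 2.51% of all genes. None was called at E16.5M, beside 0.801% (list medians -2.47 and -0.16). Egr4 stood at 64.5, 76.6 and 73.5 TPM in control and 10.8, 13.8 and 11.7 TPM in IUHG at E13.5M, and at 210.4, 232 and 208 and 188, 194 and 200.2 TPM at E16.5M (interaction 2.32 ± 0.12, adjusted p = 1.8e-07). Nab2, a corepressor gene, fell from 8.59, 9.65 and 8.60 TPM to 0.865, 0.860 and 0.635 TPM and stood at 20.6, 23.5 and 21.3 and 17.1, 17.8 and 23.9 TPM at E16.5M (interaction 2.32 ± 0.18, adjusted p = 5e-06). Egr1, an immediate early gene, fell from 51.2, 51.6 and 52.5 TPM to 7.37, 9.41 and 8.01 TPM. At E16.5M it was still lower in every IUHG library, at 25.6, 24.3 and 23.1 TPM against 37.2, 47.2 and 37.6 TPM (-0.71 ± 0.10, adjusted p = 0.0012), inside the bounds of the recovered class, which it kept in 17 of 24 alternatives. Fos behaved as Egr1 in direction but could not be placed, with differences of -1.02 ± 0.08 at E13.5M and -0.74 ± 0.08 at E16.5M (adjusted p = 0.00014). The heat shock genes Hspa1a and Hspa1b, near-identical copies that share reads, fell at E13.5M (-1.05 ± 0.12 and -1.13 ± 0.15). At E16.5M Hspa1a averaged 21.7 TPM in control and 11.7 TPM in IUHG, and Hspa1b 11.6 and 9.60 TPM, and neither was called. Atf3 was called lower only at E16.5M (-1.15 ± 0.18, adjusted p = 0.002), though its E13.5M difference was -0.83 ± 0.18. Of 21 immediate early and heat shock genes 4 were called lower at E13.5M and 1 at E16.5M, with medians of -0.496 and -0.248. These were 19.0% and 4.76% of the list, beside 2.51% and 0.801% of all genes.

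Some genes of later male germ cells also fell at E13.5M and recovered. Rsph9, a radial spoke gene, stood at 104, 119.7 and 121 TPM in control and 22.7, 20.3 and 24.6 TPM in IUHG and then at 143, 140.2 and 142 and 122, 131 and 134 TPM at E16.5M (interaction 2.17 ± 0.11, adjusted p = 1.3e-07). Tekt1, which codes for a tektin of the axoneme, fell from a mean of 4.59 to 0.958 TPM and stood at 234 and 213 TPM (interaction 1.38 ± 0.12, adjusted p = 1.1e-05). Of 28 genes of cilium motility 3 were called lower at E13.5M (10.7%, beside 2.51% of all genes) and none at E16.5M. The list medians of -0.012 and -0.006 did not move, so the fall was that of a few members. Meig1 fell by 1.90 on the log2 scale at E13.5M, Shcbp1l by 1.67 and Topaz1 by 1.23, all genes used in spermatogenesis, and each recovered.

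**Figure D3:**
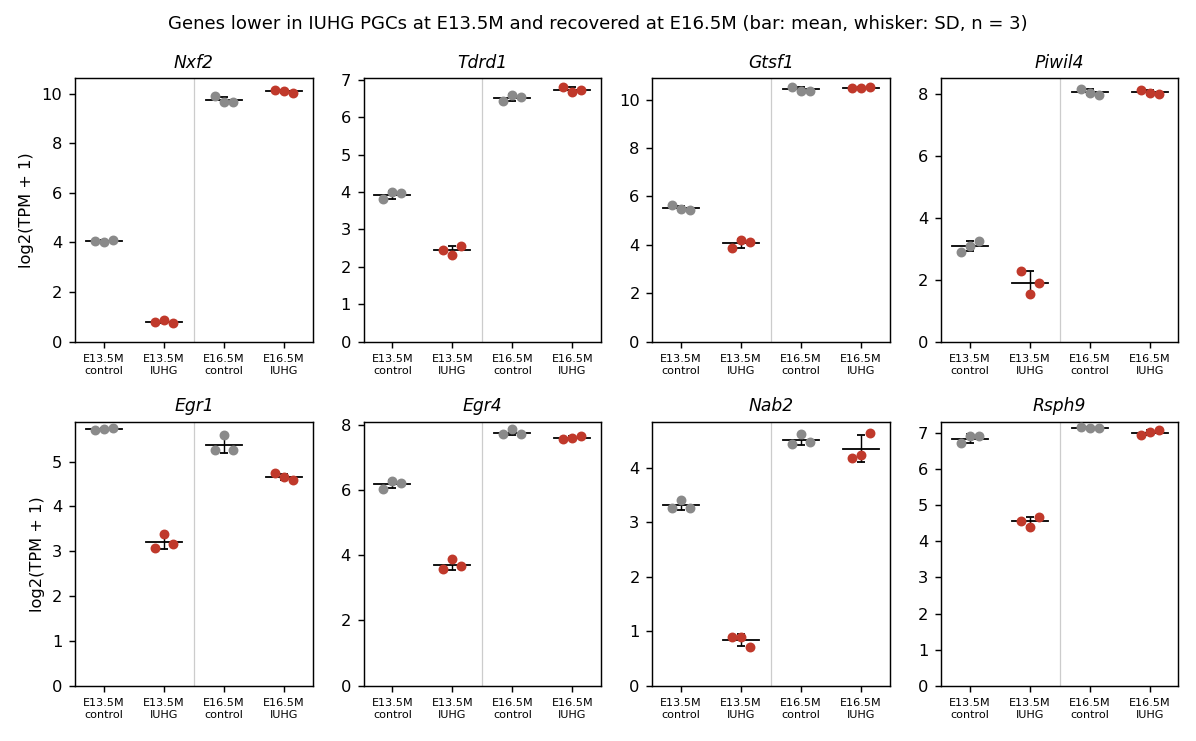
Each panel shows 1 gene that was lower in IUHG PGCs at E13.5M, as log2(TPM + 1) in each library of the 4 groups; horizontal bars are means and whiskers the SD (n = 3). IUHG libraries lie below control libraries at E13.5M in all 8 panels, and at E16.5M the group means differ by less than 1. At E16.5M every IUHG library is still below every control library for Egr1, Egr4 and Rsph9, and above for Nxf2 and Tdrd1.

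Among regulators of male fate, Nanos2 could not be placed. Nanos2 stood at 28.2, 31.9 and 31.3 TPM in control and 5.44, 2.78 and 4.33 TPM in IUHG at E13.5M, 7.28-fold lower in the means. At E16.5M, when controls had come down to 4.33, 7.09 and 4.65 TPM, IUHG libraries were at 2.04, 3.91 and 3.36 TPM, below every control library. The difference went from -2.63 ± 0.22 (adjusted p = 4.9e-06) to -0.63 ± 0.22 (adjusted p = 0.074) and the interaction was 2.00 ± 0.31 (adjusted p = 0.00097). The 95% interval at E16.5M, from -1.12 to -0.15, crossed -1, so recovery was not shown. Nanos3, its PGC relative, fell from 258, 259 and 272 TPM to 127, 128 and 132 TPM at E13.5M and was at 41.2, 49.2 and 43.5 and 45.3, 40.5 and 35.7 TPM at E16.5M (-0.14 ± 0.08), with an interaction of 0.88 ± 0.12 that missed the size threshold. Of 15 genes of male germ cell fate, 4 were called lower at E13.5M (Nanos2, Nanos3, Piwil4 and Tdrd5) and 1, Dusp6, at E16.5M. These were 26.7% and 6.67% of the list, beside 2.51% and 0.801% of all genes.

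In the NODAL pathway 1 of 13 genes was called (7.69% at E13.5M, beside 2.51% of all genes). Nodal stood at 31.5, 30.7 and 29.8 TPM in control and 30.3, 35.8 and 34.5 TPM in IUHG at E13.5M and at 3.44, 1.81 and 2.52 and 3.04, 1.89 and 2.10 TPM at E16.5M, with an interaction of -0.22 ± 0.23 (adjusted p = 0.57). Among its targets and coreceptor, Lefty2 (0.69 ± 0.12) and Tdgf1 (0.62 ± 0.13) were higher in every IUHG library at E13.5M without reaching the size threshold, and Lefty1 (0.05 ± 0.29) missed both thresholds. Foxh1, which codes for the SMAD partner of the pathway, rose from 40.5, 41.7 and 38.8 TPM to 79.1, 83.1 and 87.2 TPM and recovered (interaction -1.37 ± 0.12, adjusted p = 1.1e-05). None of the 13 was called at E16.5M, with list medians of 0.123 and 0.134. No gene of 14 DNA methylation enzymes was called in any comparison. Dnmt3l was listed at 0.860, 0.851 and 0.672 TPM in control and 0.151, 0.169 and 0 TPM in IUHG at E13.5M, under 1 TPM in all 6 libraries, and at 693, 747 and 703 and 715, 722 and 734 TPM at E16.5M. Its interaction of 0.72 ± 0.11 (adjusted p = 0.00084) was below the size threshold. Dnmt3a had means of 38.6 and 25.5 TPM at E13.5M and 299 and 417 TPM at E16.5M, with an interaction of 1.03 ± 0.27 (adjusted p = 0.02). None of 21 pluripotency factors was called. Sox2 differed by 0.26 ± 0.10 and -0.60 ± 0.10, Nanog by 0.17 ± 0.16 and 0.53 ± 0.16, and Pou5f1 by -0.16 ± 0.08 and -0.20 ± 0.08. Of 12 genes of PGC identity only Tfap2c was called, higher at E13.5M (8.33% of the list, beside 2.51% of all genes). Tfap2c stood at 14.2, 16.3 and 14.7 TPM in control and 35.0, 35.2 and 36.4 TPM in IUHG (1.19 ± 0.10, adjusted p = 4.9e-06). Its interaction of -0.90 ± 0.14 missed the size threshold.

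**Figure D4:**
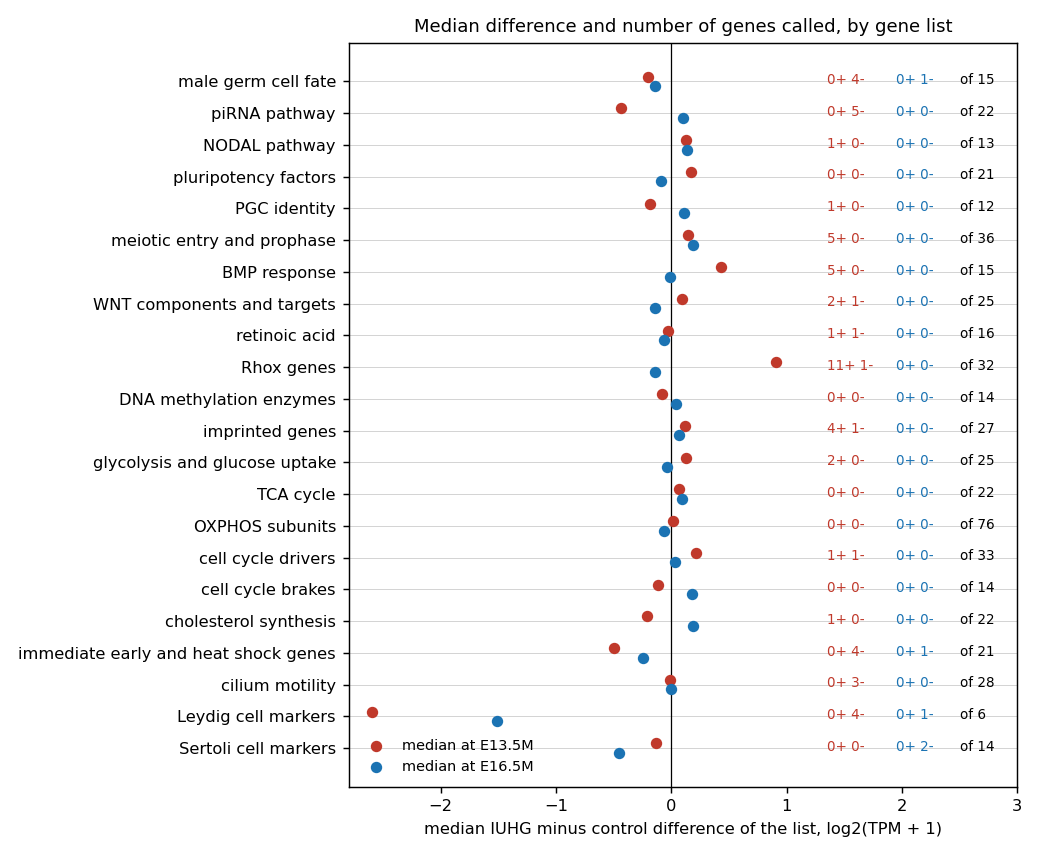
Points are the median IUHG minus control difference, log2(TPM + 1), over the genes tested of each list, at E13.5M (red) and E16.5M (blue); the numbers at the right count the genes called higher (+) and lower (-) at each stage and the genes tested. Rhox genes (0.906 and -0.145), the piRNA pathway (-0.438 and 0.098) and BMP response genes (0.432 and -0.008) lie near 0 at E16.5M, and Leydig cell markers (-2.60 and -1.52) do not.

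Silent genes differed at E13.5M, 14 higher and 9 lower in IUHG, and had a mean under 1 TPM in both E16.5M groups, though some E16.5M libraries were above that level. Pde4c, a cAMP phosphodiesterase gene, stood at 12.3, 13.1 and 12.3 TPM in control and 1.87, 1.48 and 1.64 TPM in IUHG at E13.5M and at no more than 0.472 TPM in any E16.5M library (interaction 2.38 ± 0.19, adjusted p = 5.4e-06). Hand1, a bHLH factor gene, was listed at 0 in the 3 E13.5M controls and stood at 2.98, 3.81 and 4.13 TPM in IUHG (interaction -1.84 ± 0.27, adjusted p = 0.00054). Calcoco2, an autophagy receptor gene, rose from 8.29 to 29.1 TPM and Slc35d3 from 1.96 to 5.47 TPM. Spic, an ETS factor gene, fell from 9.44 to 2.75 TPM, Spint4 from 1.70 to 0.0602 TPM, and Tgtp2, an interferon-induced GTPase gene with a near-identical copy, from 1.53 to 0.113 TPM. The interaction of these 5 genes was called, and that of Tgtp2 was lost in 12 alternatives. Cdx2, a homeobox gene, was also in this class, at 1.20 TPM in E13.5M IUHG and 0.0159 TPM in control, and its E16.5M means were 0.795 TPM in control and 0.744 TPM in IUHG.

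Only 9 genes persisted, and the 4 that were higher at both stages were all gene models. Gm19486 stood at 1.71, 0.655 and 1.03 TPM in control and 29.2, 41.8 and 29.7 TPM in IUHG at E13.5M, and at 3.35, 3.54 and 2.82 and 18.4, 21.2 and 24.3 TPM at E16.5M. The difference went from 4.03 ± 0.19 (adjusted p = 2.6e-08) to 2.39 ± 0.19 (adjusted p = 1.9e-05), so it persisted at a smaller size (interaction -1.64 ± 0.26, adjusted p = 0.0011). Gm20305 went from 3.15 ± 0.19 to 1.57 ± 0.19 (interaction adjusted p = 0.0018). Both kept the class in all 24 alternatives. Gm45660 and Gm14287 complete the higher group and were named here after their values were seen. Of the 5 persistently lower genes, Rnf26rt, a retrotransposed relative of Rnf26 with which it can share reads, stood at 5.00, 6.03 and 6.43 TPM against 0.222, 0.439 and 0.311 TPM at E13.5M and at 3.20, 2.90 and 4.18 against 0.123, 0.653 and 0.647 TPM at E16.5M (-2.36 ± 0.18 and -1.60 ± 0.18). Serpina3a, of a serine proteinase inhibitor family with near-identical members, differed by -1.63 ± 0.22 and -1.36 ± 0.22, and the gene model Gm46209 by -1.38 ± 0.16 and -1.64 ± 0.16. Ppp1r32 differed by -1.02 ± 0.21 and -1.04 ± 0.21, at the edge of the thresholds, and kept the class in 6 of 24 alternatives.

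Insl3, a peptide hormone gene of Leydig cells, had the largest difference among the persistently lower genes. It stood at 23.9, 11.8 and 21.2 TPM in control and 0, 1.05 and 0 TPM in IUHG at E13.5M, and at 90.1, 50.6 and 18.7 and 3.18, 10.3 and 0 TPM at E16.5M. IUHG libraries lay below every control library at both stages, with differences of -3.92 ± 0.73 (adjusted p = 0.0023) and -3.65 ± 0.73 (adjusted p = 0.0068), and values varied widely within E16.5M groups. Insl3 kept the class in 12 of 24 alternatives and was not called at E16.5M when that stage was fitted on its own. Of 6 Leydig cell markers tested, 4 were called lower at E13.5M (66.7%, beside 2.51% of all genes) and Insl3 alone at E16.5M (16.7%, beside 0.801%). All 6 markers had negative differences at both stages, and the medians were -2.60 and -1.52. Their sum over 7 genes ranged from 33.7 to 50.1 TPM in E13.5M control libraries and from 0.970 to 5.06 TPM in IUHG, and from 44.5 to 190.1 TPM and 12.53 to 34.4 TPM at E16.5M. In E13.5M IUHG libraries Cyp11a1 and Cyp17a1, steroidogenic enzyme genes, averaged 0.228 and 0.270 TPM, with 1 library each listed at 0. How many Leydig cells entered each sort is not known from these values, and cells and RNA per cell cannot be told apart.

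Late genes were mostly low or unnamed. Of the 73, 51 were under 1 TPM in both E13.5M groups, so that only 22 (14 higher and 8 lower at E16.5M) were expressed at E13.5M without a called difference. Gene models and copies made up 26 of the 38 higher and 19 of the 35 lower genes (68.4% and 54.3%, beside 29.1% of all genes tested). Only 13 of the 73 kept the class with each stage fitted on its own. Cwc22, which codes for a spliceosome protein (chr2:77711503-77776719, minus strand), stood at 37.8, 37.9 and 41.7 TPM in control and 30.1, 28.8 and 32.1 TPM in IUHG at E13.5M, and at 9.32, 10.4 and 6.33 and 47.2, 48.2 and 46.7 TPM at E16.5M. The E16.5M difference was 2.35 ± 0.13 (adjusted p = 9.1e-07), and the interaction was 2.70 ± 0.18 (adjusted p = 1.6e-06). E16.5M control libraries lay below every E13.5M library, and E16.5M IUHG libraries lay above every one. The gene model Gm13726, listed beside Cwc22 on the same chromosome, was also a late gene, and reads of neighbouring or overlapping models may be shared. Slc25a17, a peroxisomal carrier gene, stood at 43.0, 44.8 and 41.4 and 49.6, 42.3 and 41.9 TPM at E13.5M and at 39.1, 40.8 and 37.9 against 99.2, 100.2 and 107 TPM at E16.5M (interaction 1.31 ± 0.10, adjusted p = 5.8e-06). Gal, the galanin gene, was lower in IUHG at E13.5M, at 9.65, 11.1 and 11.7 TPM against 16.7, 21.4 and 17.5 TPM (-0.72 ± 0.10, adjusted p = 0.0003, short of the size threshold), and higher at E16.5M, at 261, 287 and 316 TPM against 128, 134 and 140.3 TPM (1.10 ± 0.10, adjusted p = 6.9e-05). Cep15, a centrosomal protein gene, was 2.13-fold higher in the E16.5M means, 35.7 TPM against 16.8 TPM. The copies Rps3a3 and Rpl15-ps6 had larger E16.5M differences (4.41 and 2.58), which are uncertain because such copies share reads with their parent genes.

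Among late genes that were lower, Dusp6, a phosphatase gene that ERK signalling induces, stood at 22.2, 26.9 and 23.0 TPM in control and 24.0, 25.6 and 27.9 TPM in IUHG at E13.5M, and at 4.08, 5.70 and 4.67 TPM against 1.43, 1.62 and 1.63 TPM at E16.5M. No IUHG library reached the lowest control library at E16.5M, and the interaction was -1.28 ± 0.17 (adjusted p = 0.0003). Scgn, the gene of the calcium-binding protein secretagogin, was higher in IUHG at E13.5M (0.59 ± 0.12, adjusted p = 0.0035, short of the size threshold) and lower at E16.5M, at 5.26, 7.13 and 6.68 TPM against 15.8, 15.6 and 13.3 TPM (-1.12 ± 0.12, adjusted p = 0.00016). Prap1 differed by -0.08 ± 0.11 and -1.32 ± 0.11. Skint2, of the immunoglobulin superfamily, was listed at 0 in all 6 E13.5M libraries and stood at 5.72, 4.49 and 5.16 TPM in control and 0.245, 0.853 and 0.195 TPM in IUHG at E16.5M (interaction -2.12 ± 0.24, adjusted p = 0.00011). Cst9, a Sertoli cell cystatin gene, stood at 48.4, 46.2 and 46.9 and 78.2, 67.3 and 46.4 TPM at E13.5M and at 79.2, 65.5 and 85.2 against 28.6, 22.8 and 12.2 TPM at E16.5M (interaction -2.27 ± 0.35, adjusted p = 0.00079). Defb19, a defensin gene of Sertoli cells, was also called lower at E16.5M (-1.31 ± 0.13, adjusted p = 0.00011) but was not a late gene and could not be placed. It was already lower at E13.5M, at 24.1 to 38.2 TPM in IUHG against 51.7 to 59.3 TPM in control libraries. The sum of 14 Sertoli cell markers ranged from 327.8 to 361.4 TPM in E16.5M control libraries and from 160.6 to 199.7 TPM in IUHG, and from 199.8 to 220.9 TPM and 174.0 to 241.5 TPM at E13.5M. Of these 14, 2 were called lower at E16.5M (14.3%, beside 0.801% of all genes) and none at E13.5M, with medians of -0.453 and -0.137. The part of these cells in the late differences was not tested.

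Reversed genes were all higher in IUHG PGCs at E13.5M and lower at E16.5M. Ahcyl, named as adenosylhomocysteinase-like, stood at 3.64, 3.70 and 3.59 TPM in control and 12.1, 11.2 and 10.9 TPM in IUHG at E13.5M, and at 1.92, 2.19 and 2.48 TPM against 0.297, 0.299 and 0.310 TPM at E16.5M. The groups did not overlap at either stage, as held for 35.7% of all genes at E13.5M and 29.1% at E16.5M, and the interaction was -2.71 ± 0.16 (adjusted p = 5.3e-07). Rnaset2b, a ribonuclease gene with a near-identical neighbour, stood at 2.43, 4.00 and 2.92 and 9.34, 7.38 and 7.71 TPM at E13.5M and at 12.7, 13.3 and 15.0 and 4.43, 2.98 and 3.55 TPM at E16.5M (interaction -2.83 ± 0.23, adjusted p = 5.8e-06). Tex37, a testis gene, was listed at 0 in all 3 E16.5M IUHG libraries (interaction -3.18 ± 0.29, adjusted p = 1.5e-05), and Klk1b3, a kallikrein gene with close copies, kept the class in 8 of 23 alternatives. The other 5 were gene models or copies, led by Rps13-ps1 (4.07 ± 0.12 and -1.91 ± 0.12) and Hmgb1-ps7 (2.33 ± 0.12 and -1.80 ± 0.12). Of 176 processed copies of ribosomal protein genes tested, 8 were called at E13.5M (4.55%) and 12 at E16.5M (6.82%), beside 2.51% and 0.801% of all genes, whereas of 90 ribosomal protein genes only Rps3a3, itself such a copy, was called. Rps2-ps13 had the largest difference of any gene, with 1.48, 1.65 and 1.36 TPM in control and 507, 466 and 494 TPM in IUHG at E13.5M and 98.1, 75.1 and 78.2 and 129, 145 and 112 TPM at E16.5M. Counts of such copies depend on how reads that match several places were assigned, and they are uncertain.

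**Figure D5:**
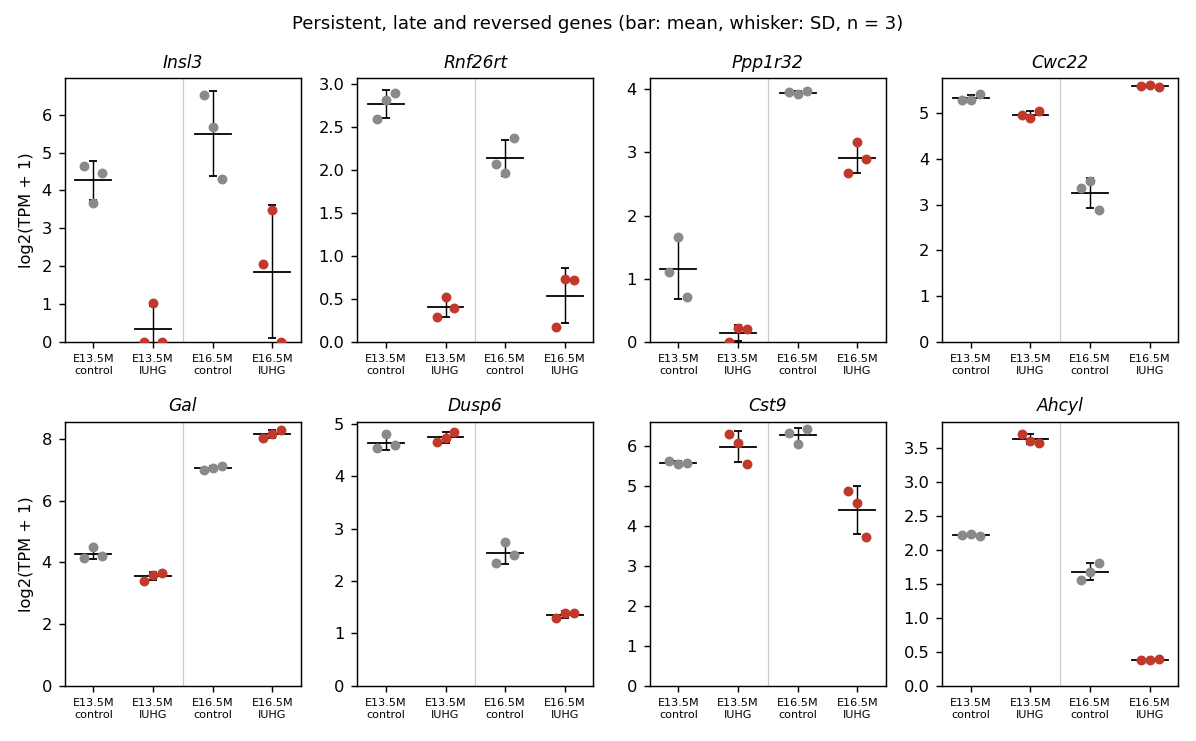
Each panel shows 1 persistent (Insl3, Rnf26rt, Ppp1r32), late (Cwc22, Gal, Dusp6, Cst9) or reversed (Ahcyl) gene, as log2(TPM + 1) in each library of the 4 groups; horizontal bars are means and whiskers the SD (n = 3). IUHG libraries of the persistent genes lie below control libraries at both stages, those of the late genes differ from control by more than 1 in the mean only at E16.5M, and Ahcyl crosses from higher to lower.

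Called and recovered genes are also described by where they lie, and called genes by how high they were expressed. Genes on the X chromosome made up 3.58% of the 21712 genes tested (777), 9.89% of genes called higher at E13.5M (28, of which 11 were Rhox genes) and 7.63% of those called lower (20). Without Rhox genes the shares were 3.44%, 6.25% and 7.28%. At E16.5M, 3 of 82 genes called higher were X-linked (3.66%) and none of 92 called lower. X-linked genes were 10.4% of the recovered genes that had been higher and 9.22% of those that had been lower. In E16.5M controls the median gene called lower at E13.5M stood at 14.5 TPM and the median gene called higher at 7.60 TPM, beside 5.32 TPM over all genes tested, and these shares and medians are descriptions with no test. None of 4 Y-linked genes was called at either stage or in the interaction.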

How the data were processed

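PGC libraries were made by Smart-seq2, which does not mark strand, so reads of overlapping genes cannot be told apart. The submitters' processing notes name FastQC, Trim Galore, STAR, featureCounts and DESeq2 and the mm39 build. Positions are given as listed by the authors and no genome of that build was used. The deposited TPM values were made by the authors with StringTie and are corrected for length and sum to 1 common total per library. FPKM values, also deposited, are scaled by the authors for length and mapped fragments, and coverage, as deposited, is the unscaled mean depth over a gene. Read counts were not used here, so the authors' count test was not run. Aligned bases per library were computed as coverage over FPKM, and precision per gene is limited to the spread between 3 libraries.

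Genes with a mean of at least 1 TPM in any of the 4 groups were tested as log2(TPM + 1) with limma 3.58.1 (R 4.3.3, eBayes with trend = TRUE), with 12 libraries, 4 groups and 3 contrasts in 1 fit. The thresholds are those of the study's PGC methods, with the P taken as adjusted. Named are the 4 genes of lowest p for each class and direction whose libraries do not overlap (with up to 2 gene models or copies), called members of 40 gene lists, and some key genes. Classes, members and lists were chosen with earlier results of these data known. Other PGC groups served 1 alternative and a few reference levels, and 6 gonad libraries were not used. Alternatives were 24. On simulated data 91% of 100 genes given a log2 change of 2 and 96% of 100 given 3 were called in the interaction, with 1 unchanged gene called. The simulation used normal noise with 1 spread per gene for all 4 groups, and changed genes had a mean log2(TPM + 1) above 2. It left out the wider spread at E16.5M and changes in weakly expressed genes, so it cannot show how reliable such calls are. Python 3.11.15, numpy 2.4.6, pandas 2.3.3 and matplotlib 3.10.9 were used for tables and figures.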

Additional observations from a re-analysis of the deposited data

Results flagged for a closer look

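The response to IUHG differed between E13.5M and E16.5M, by the limma test of the interaction (adjusted p under 0.01 and absolute log2 difference above 1), for 701 genes. Values are the log2 difference at E16.5M minus that at E13.5M.

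Of recovered genes that had been higher at E13.5M, the interaction was -6.18 for Phlda2, -3.22 for Rhox6, -2.13 for Npw and -2.48 for Id1. For those that had been lower it was 3.60 for Nxf2, 2.18 for Ptgr1, 2.17 for Rsph9 and 2.32 for Egr4.

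Of genes with a mean under 1 TPM in both E16.5M groups, the values were -2.47 for Msx1, -1.84 for Hand1, -1.70 for Calcoco2 and -1.51 for Slc35d3, which had been higher, and 2.38 for Pde4c, 1.34 for Spint4, 1.72 for Spic and 1.11 for Tgtp2, which had been lower.

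Late genes that were higher at E16.5M had 2.70 for Cwc22, 1.82 for Gal, 1.31 for Slc25a17 and 1.04 for Cep15. Late genes that were lower had -1.70 for Scgn, -2.12 for Skint2, -1.24 for Prap1 and -1.28 for Dusp6. Of the 9 reversed genes, the 4 of lowest p had -2.71 for Ahcyl, -2.83 for Rnaset2b, -3.18 for Tex37 and -2.59 for Klk1b3.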

How the results depend on the processing

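With FPKM in place of TPM, 320 genes were called at E13.5M and 77 at E16.5M, 15 were silent and 39 late. A pseudocount of 0.1 gave 1024 genes at E13.5M, 4 silent and 36 late. Without a filter on low TPM 5 genes persisted, and with a mean of at least 5 TPM 91 were called at E16.5M, 9 were silent and 41 late. Quantile normalization left 188 recovered genes. All 30 PGC libraries in 1 fit gave 316 genes in the interaction, 358 at E13.5M, 125 recovered and 12 silent. Each stage fitted on its own gave 340 genes at E13.5M, 27 at E16.5M, 12 silent, 2 persistent, 13 late and 4 reversed. An adjusted p under 0.05 gave 14 persistent and 140 late genes. With no threshold on the size there were 1800 genes in the interaction, 2208 at E13.5M, 1098 at E16.5M, 966 recovered, 111 persistent, 369 late and 120 reversed. A fit with 1 weight for each stage, chosen after seeing the data, gave 110 genes at E16.5M and 4 persistent. Causes were not tested. Of the 305 recovered genes, 263 were recovered with stage weights, 214 with each stage fitted on its own and 124 with all 30 PGC libraries.

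Leaving out each library in turn gave 599 to 754 genes in the interaction, 491 to 548 at E13.5M, 143 to 243 at E16.5M, 257 to 297 recovered, 16 to 22 silent, 5 to 9 persistent, 44 to 121 late and 8 to 11 reversed. Without E13.5M control replicate 2 or E13.5M IUHG replicates 1, 2 or 3, late genes numbered 46, 47, 47 and 44. Without E16.5M IUHG replicate 1 there were 121 late and 5 persistent genes, and without E16.5M IUHG replicate 2 there were 5 persistent genes. No called interaction of a named gene changed sign in any of the 24 alternatives.

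Replicate numbers did not pair the samples: deviations of same-numbered control and IUHG libraries correlated at -0.029 to 0.073 within a stage. With the replicate number as a block within each stage, 532 genes were called in the interaction, 501 at E13.5M and 98 at E16.5M, and 256 were recovered, 15 silent and 37 late.

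Depth per gene is unknown, E16.5M libraries had fewer aligned bases and a wider spread than E13.5M libraries, and 51 of 73 late genes were under 1 TPM at E13.5M. With 3 libraries in each group, a difference that missed the thresholds is not shown to be absent.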

Other observations

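Some gene groups not described above had a larger share called at E13.5M than the 2.51% of all genes. The WNT, retinoic acid and study's pluripotency lists were among them. Other groups had no gene called at that stage. Of 25 WNT components and targets, 2 were called higher (Porcn and Notum) and 1 lower at E13.5M, Rspo1, a WNT agonist gene that fell by 1.28 on the log2 scale, and none at E16.5M. The E13.5M calls were 12.0% of the list, beside 2.51% of all genes. Of 16 retinoic acid genes, Crabp1 was called higher at E13.5M and Aldh1a2, which codes for a retinoic acid synthesizing enzyme, lower, from 10.7, 11.7 and 13.7 TPM in control to 3.94, 5.03 and 5.85 TPM in IUHG (-1.14 ± 0.12, adjusted p = 2.9e-05 by limma). At E16.5M Aldh1a2 stood at 76.5, 72.5 and 69.2 and 65.8, 58.7 and 60.0 TPM. Rarg, a retinoic acid receptor gene, was called in the interaction and at neither stage (1.02 ± 0.19). Of 22 cholesterol synthesis genes, only Ebp was called, higher at E13.5M (1.19 ± 0.20) with an interaction of -1.92 ± 0.29 (adjusted p = 0.0007), while the list median was -0.211 at E13.5M and 0.192 at E16.5M. Of 20 p53 targets and apoptosis genes 1 was called higher at E13.5M (Perp), and of 20 stress response genes 1 lower at E16.5M (Atf3). None of 19 genes of the PRC1.6 complex and related repressors and none of 33 mitochondrially encoded genes was called at either stage. Of 18 genes of antigen presentation none was called at either stage, and H2-D1 was called in the interaction (-1.2001 ± 0.26). On the study's list of pluripotency genes, chosen on these PGC libraries, 7 of 60 were called higher and 3 lower at E13.5M and none at E16.5M. The E13.5M calls were 16.7% of the list, beside 2.51% of all genes. Given how the list was chosen, this share is not independent evidence of a change.

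Sct, the secretin gene, had the largest interaction among the genes called in it that could not be placed. It is on the study's list of pluripotency genes. It stood at 2.59, 3.37 and 4.33 TPM in control and 66.6, 64.3 and 67.8 TPM in IUHG at E13.5M, and at 37.6, 32.0 and 29.1 TPM against 17.3, 21.1 and 20.9 TPM at E16.5M. The difference went from 3.94 ± 0.14 to -0.71 ± 0.14 (adjusted p = 0.006), and the interaction was -4.65 ± 0.19 (adjusted p = 2.1e-08). Its E16.5M interval, from -1.0025 to -0.41, crossed -1.

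Markers of other cells had these sums. Interstitial markers ranged from 11.2 to 13.7 TPM in E13.5M control and from 4.87 to 6.31 TPM in IUHG libraries, and from 44.9 to 67.6 and 65.8 to 75.1 TPM at E16.5M. Endothelial markers ranged from 83.8 to 88.2 and from 118.0 to 125.3 TPM at E13.5M and from 259.9 to 278.8 and 227.5 to 249.1 TPM at E16.5M. Most of the E13.5M sum was Pecam1, Egfl7 and Cldn5. Their means were 49.5, 24.3 and 11.6 TPM in control and 77.5, 25.3 and 18.5 TPM in IUHG. Cdh5, Kdr, Tie1 and Tek had means of at most 0.268 TPM and were lower in IUHG. Emcn, also low, was higher in IUHG, with means of 0.161 TPM in control and 0.247 TPM in IUHG. Blood and macrophage markers ranged from 10.5 to 86.9 and from 4.90 to 14.3 TPM at E13.5M, and from 442.1 to 742.9 and 184.7 to 416.4 TPM at E16.5M. Pregranulosa markers ranged from 15.3 to 19.9 and from 10.7 to 12.6 TPM at E13.5M and from 36.3 to 41.3 and 31.5 to 37.9 TPM at E16.5M. Most of their E13.5M control sum was Rspo1, with means of 13.9 TPM in control and 5.13 TPM in IUHG. Fst was also lower in IUHG, whereas Foxl2, Wnt4, Irx3, Irx5, Bmp2 and Lgr5, all low, had higher means. Of 6 tested, Irx3 was called higher and Rspo1 lower at E13.5M (33.3%, beside 2.51% of all genes), with a list median of 0.119. None was called at E16.5M.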
